A study of Mus musculus with 15 samples.

Results

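The multidrug ABC transporters are the membrane pumps best known for moving anticancer drugs out of cells. The set comprised 8 listed genes, Abcb1a, Abcb1b, Abcc1, Abcc2, Abcc3, Abcc4, Abcc5 and Abcg2, taken by symbol from the deposited expression table. Of these, 7 matched a row among the 17271 genes, and Abcc2 was not analysed here. RNA-seq had been made from 15 mammary tumours of BALB/c mice, all p53-null, that belonged to 4 tumour models, with 8 samples of 2208L, 4 of 2151R, 2 of 2225L and 1 of T11. Within 2208L, 4 samples were titled PBS, 3 were titled 3day nt and 1 was titled ROSEN. In 2225L, replicate 1 was titled T-Vivo, which is not explained, and replicate 2 was titled ROSEN. No drug is named in any title, the titles of 2151R replicates 1 and 2 carry codes that are not explained while those of replicates 3 and 4 carry NT, and the ages of the animals are not given in the sources used here. Nothing in the labels says which samples came from separate animals, so the p-values measure the spread between these samples only. The series title concerns chemotherapy combined with macrophage depletion in triple negative breast cancer, and the comparison set up by the labels is that between the models.

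ABC transporters use the energy of ATP to carry substrates across membranes. Abcb1a and Abcb1b are the pair of mouse genes that together correspond to human ABCB1, which encodes P-glycoprotein, a pump for bulky hydrophobic drugs such as taxanes and anthracyclines. The Abcc members are multidrug resistance proteins, which export organic anions, among them drugs joined to glutathione or glucuronic acid. Abcg2 encodes the breast cancer resistance protein, which works as a dimer, exports topoisomerase inhibitors among other substrates, and carries vitamins into milk in the lactating mammary gland.

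Each value is a log2 expression value, by the name of the deposited table, set relative to a level of its own gene, so a difference of 1 between samples is a doubling on the deposited scale. Levels of different genes cannot be ranked, because each gene has its own reference level. With no counts in the table, sequencing depth is unknown. At the 7 members, no value was shared between samples. Epithelial markers differed widely between the models: the mean of 9 epithelial genes, each centred over the 15 samples, was from -2.75 to -1.71 in 2151R, -6.88 in T11, 3.33 and 3.44 in 2225L, and from 0.47 to 2.07 in 2208L. Skeletal muscle genes were high in 3 samples, 2151R replicate 3 and 2208L replicates 6 and 8, and the counts of members were also computed without them.

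The start regions of the P-glycoprotein genes are shown because these genes had the widest differences among the members, and that of Abcg2 because it differed in the opposite direction between 2151R and 2208L. The sequences are the 250 bases before an annotated start, from RefSeq on GRCm38.p6, read 5′ to 3′ on the plus strand, which is the gene strand of all 3. Those of Abcb1a and Abcb1b are at chr5:8566841-8567090 and chr5:8797897-8798146. For Abcg2, RefSeq has 3 starts, and the window with the most CG pairs is printed, at chr6:58640296-58640545. Capitals mark matches to the motifs searched on both strands.
Abcb1a: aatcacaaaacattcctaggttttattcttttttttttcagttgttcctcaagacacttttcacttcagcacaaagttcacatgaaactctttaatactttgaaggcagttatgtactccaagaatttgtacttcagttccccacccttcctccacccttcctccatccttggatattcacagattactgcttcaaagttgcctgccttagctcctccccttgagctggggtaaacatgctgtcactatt
Abcb1b: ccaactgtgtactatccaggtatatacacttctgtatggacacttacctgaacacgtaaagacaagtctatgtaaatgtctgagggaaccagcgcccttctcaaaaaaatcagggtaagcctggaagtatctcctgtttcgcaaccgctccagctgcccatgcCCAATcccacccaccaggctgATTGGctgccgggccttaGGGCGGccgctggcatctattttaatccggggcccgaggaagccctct
Abcg2: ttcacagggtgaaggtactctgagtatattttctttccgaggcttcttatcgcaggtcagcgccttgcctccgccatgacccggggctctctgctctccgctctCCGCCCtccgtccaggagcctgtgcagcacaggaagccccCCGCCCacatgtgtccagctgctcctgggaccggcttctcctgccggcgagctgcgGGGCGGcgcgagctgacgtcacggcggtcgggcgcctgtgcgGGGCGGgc
The motifs were the CCAAT box (CCAAT), the GC box (GGGCGG), the TATA box (TATAAA), the AP-1 site (TGACTCA), the E-box CACCTG, the antioxidant response element core (TGACNNNGC) and the xenobiotic response element core (GCGTG). The AP-1 and antioxidant motifs share letters and can overlap, and no matches overlapped in the windows printed. The Abcb1b window held 2 CCAAT matches, 1 on each strand, and 1 GC box, and the Abcg2 window held 4 GC boxes. None of the motifs matched in the Abcb1a window, which also had 0 CG pairs and 40.4% G or C. The values were 9 and 52.8% for Abcb1b and 23 and 67.6% for Abcg2. Because the Abcg2 window was picked for its CG pairs, its contrast with the other genes follows from that choice. The other Abcg2 windows had 3 and 10 CG pairs and at most 51.2% G or C, and the one with 3 matched none of the motifs. Among all 32851 windows of this length the median was 6 CG pairs and 52.4%, while 33.8% held a CCAAT match and 32.7% a GC box. The start regions of the adjacent genes Abcb1a and Abcb1b therefore differ in composition. Which start the tumours used was not measured.

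The P-glycoprotein genes were high in 2151R and T11 and low in 2225L and 2208L. Abcb1a (chromosome 5, 8567091 to 8748575) had values of 2.79, 2.45, 1.89 and 2.12 in 2151R, 1.96 in T11, and -1.41 and -1.69 in 2225L. In 2208L the lowest was -2.77, the median -1.10 and the highest 0.00. All 5 samples of 2151R and T11 lay above all 10 of the other models. The mean of 2151R was 2.31 ± 0.39 (SD, n = 4) and that of 2208L -1.09 ± 0.88 (SD, n = 8), a difference of 3.40 (SE 0.42, limma adjusted p 1.89e-05), or 10.6-fold. Between 2225L and 2208L the difference in Abcb1a was -0.46 (SE 0.54, limma adjusted p 0.550, 95% interval -1.64 to 0.71), and the samples overlapped. The lowest value of 2208L was that of replicate 1, the sample titled ROSEN.

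Abcb1b (chromosome 5, 8798147 to 8866314) gave the widest range of the members. Its values were 5.26, 4.58, 4.89 and 4.98 in 2151R, 3.73 in T11, and -2.62 and -2.02 in 2225L. In 2208L they ran from -1.14 through a median of -0.46 to 0.00. The 4 models formed separate ranges in the order 2151R, T11, 2208L and 2225L. The difference between 2151R and 2208L was 5.44 (SE 0.23, limma adjusted p 4.83e-10), or 43.3-fold. In 2225L, Abcb1b differed by -1.81 from 2208L (SE 0.29, limma adjusted p 0.000473). From 2151R it differed by -7.25 (SE 0.32, adjusted p 3.30e-09 in limma). The coding sequences of Abcb1a and Abcb1b, each 3828 bases, align with 87.6% identity and share an exact run of 338 bases. How reads from such stretches were divided is not given in the sources used here, so the split between this pair is uncertain.

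**Figure D1:**
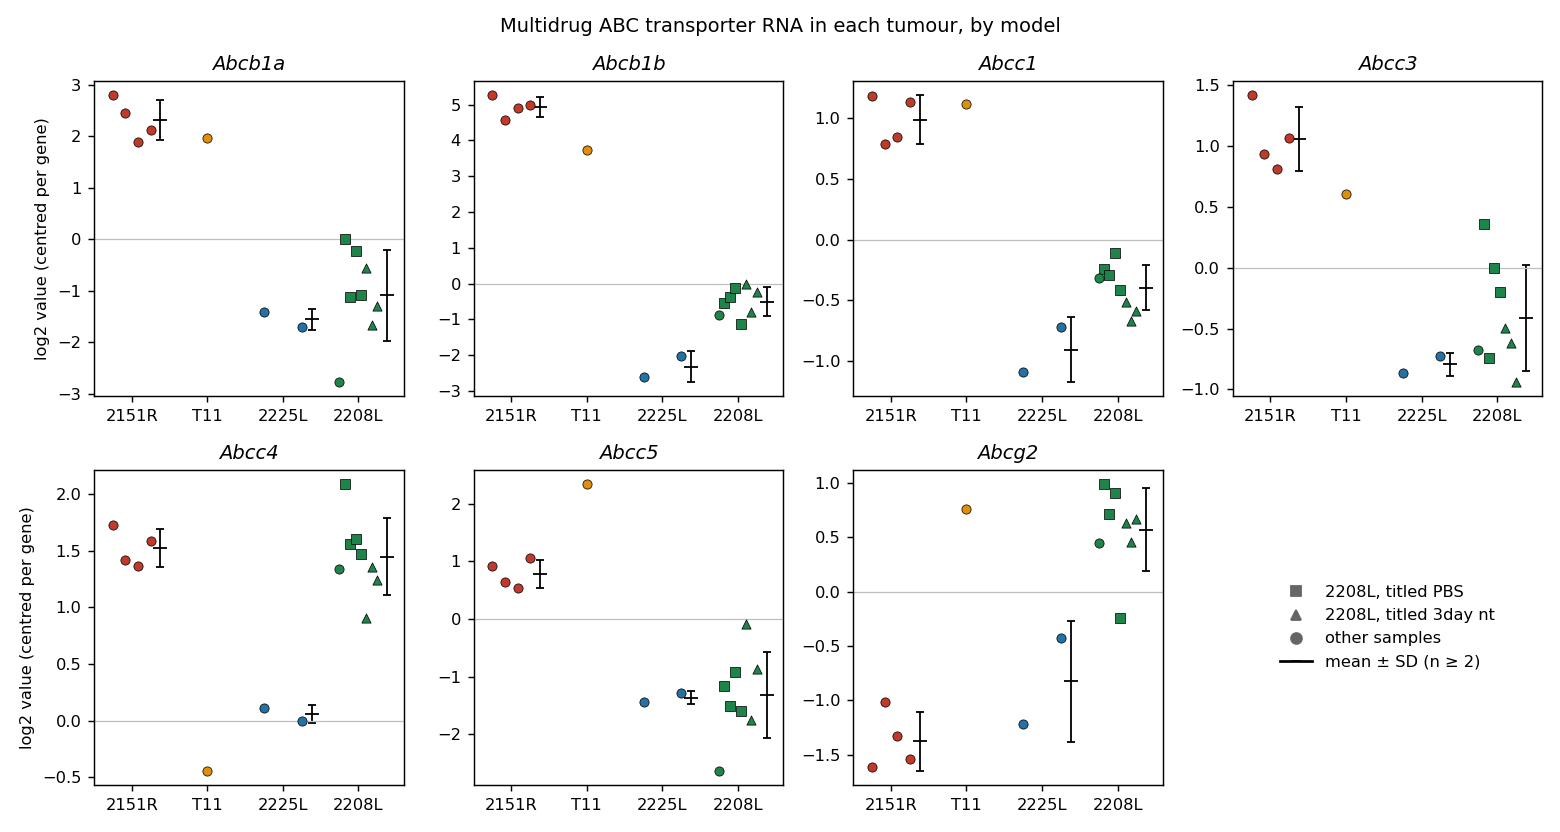
Log2 value of each of the 7 transporters (vertical axis, relative to a level of each gene, scale differs between panels) in each of the 15 tumours, by model; squares and triangles mark the 2208L samples titled PBS and 3day nt, and bars give mean ± SD where a model has at least 2 samples. For Abcb1a and Abcb1b the samples of 2151R and T11 sit above all others, while for Abcg2 the 2151R samples, from -1.62 to -1.01, are below every sample of 2208L and T11.

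Among the multidrug resistance proteins, Abcc1, Abcc3 and Abcc5 were also higher in 2151R than in 2208L, and Abcc4 was not called different. Abcc1 (chromosome 16, 14361453 to 14474878) exports glutathione conjugates and leukotriene C4. Its values were 1.18, 0.79, 0.85 and 1.13 in 2151R, 1.11 in T11, and -1.09 and -0.72 in 2225L. In 2208L they ran from -0.67 through a median of -0.37 to -0.11. T11 lay within 2151R, and the ranges of 2151R, 2208L and 2225L were separate. The difference between 2151R and 2208L was 1.38 (SE 0.14, limma adjusted p 3.51e-06), or 2.61-fold. Between 2225L and 2208L it was -0.51 (SE 0.18, limma adjusted p 0.0481). That call was lost in 14 of 21 alternatives, over which the adjusted p ran from 0.0354 to 0.398. Among them was leaving out 2225L replicate 1 (-0.32, limma adjusted p 0.317) or any of 2208L replicates 1 to 6 (adjusted p from 0.0505 to 0.0740).

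Abcc3 (chromosome 11, 94343295 to 94393017), an exporter of glucuronides and bile acids, had values of 1.42, 0.93, 0.81 and 1.07 in 2151R and 0.61 in T11. It was at -0.86 and -0.73 in 2225L, and ran from -0.94 through a median of -0.56 to 0.36 in 2208L. The samples of 2151R and T11 were again above the rest, while those of 2225L lay inside the range of 2208L. Abcc3 differed by 1.47 between 2151R and 2208L (SE 0.23, limma adjusted p 0.000132) and by -0.38 between 2225L and 2208L (SE 0.29, limma adjusted p 0.346, 95% interval -1.01 to 0.25). Of the 21 pairs of members, Abcc1 and Abcc3 had the most alike profiles, with a root mean square difference of 0.29 over the 15 samples after centring. The next pair, Abcc1 and Abcc5, had 0.78.

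Abcc5 (chromosome 16, 20331303 to 20426428) exports cyclic nucleotides and nucleotide analogues. Its values were 0.91, 0.63, 0.54 and 1.05 in 2151R, and T11 was highest at 2.34. In 2225L it was -1.45 and -1.29, and in 2208L it ran from -2.63 through a median of -1.34 to -0.10. The ranges of 2151R and T11 were separate from each other and above the others, and 2225L lay inside 2208L. The difference between 2151R and 2208L was 2.10 (SE 0.35, limma adjusted p 0.000268), or 4.29-fold. Between 2225L and 2208L it was -0.049 (SE 0.46, limma adjusted p 0.945), with a 95% interval of -1.03 to 0.93. As with Abcb1a, the lowest sample of 2208L was the one titled ROSEN.

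Abcc4 (chromosome 14, 118482692 to 118707856), an exporter of cyclic AMP, prostaglandins and nucleotide analogues, had another order. Its values were 1.73, 1.42, 1.36 and 1.59 in 2151R, and ran from 0.90 through a median of 1.41 to 2.09 in 2208L. In 2225L it was 0.11 and 0.00, and in T11 -0.44. The 2151R samples lay inside the range of 2208L, and both were above 2225L and T11. Between 2151R and 2208L the difference was 0.080 (SE 0.18, limma adjusted p 0.739), with a 95% interval of -0.31 to 0.47. In 2225L, Abcc4 differed by -1.39 from 2208L (SE 0.24, limma adjusted p 0.000652). From 2151R it differed by -1.47 (SE 0.26, adjusted p 0.000450 in limma).

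Abcg2 (chromosome 6, 58584491 to 58692451) was low in 2151R and in 2225L. Its values were -1.62, -1.01, -1.33 and -1.54 in 2151R, -1.22 and -0.43 in 2225L, and 0.76 in T11. In 2208L they ran from -0.24 through a median of 0.65 to 0.99. T11 lay within 2208L, and every sample of 2151R and 2225L lay below both. The difference between 2151R and 2208L was -1.95 (SE 0.23, limma adjusted p 1.14e-05), which is 3.86-fold lower. From 2208L, 2225L differed by -1.40 at Abcg2 (SE 0.29, limma adjusted p 0.00282), but without 2225L replicate 1 the difference was -1.001 and not called (limma adjusted p 0.0575). Between 2225L and 2151R it was 0.55 (SE 0.32, limma adjusted p 0.174, 95% interval -0.14 to 1.25).

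**Figure D2:**
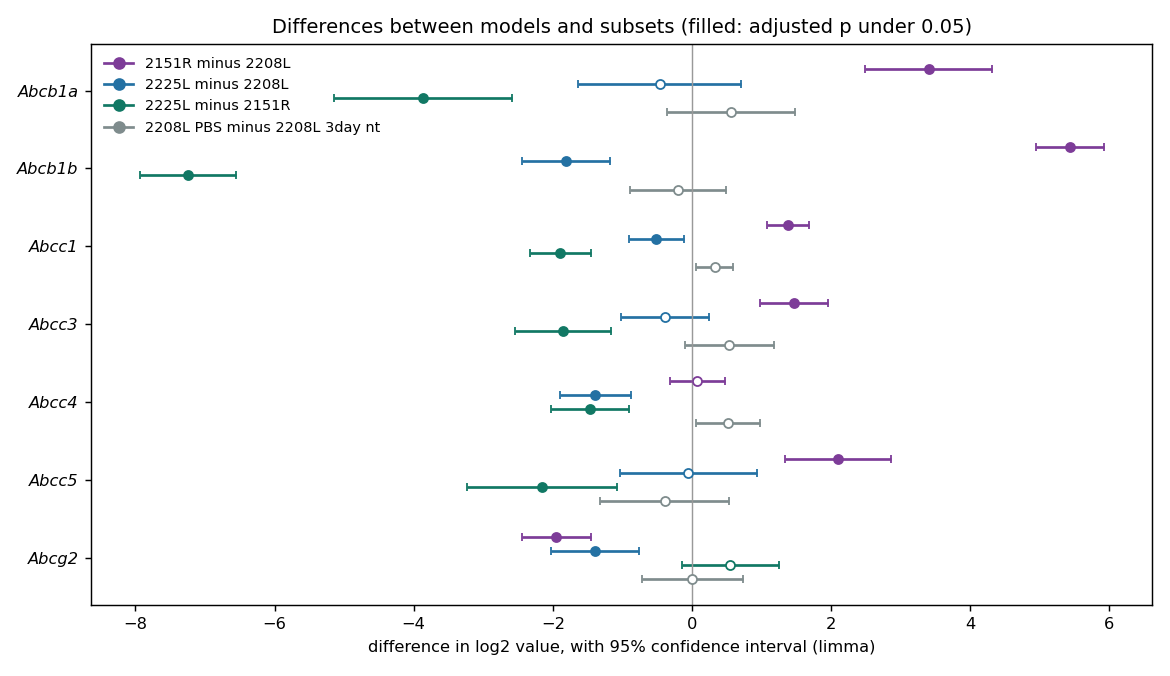
Difference in log2 value with its 95% confidence interval from limma (horizontal axis) for each transporter (rows) in the 4 comparisons; filled points have an adjusted p under 0.05. Between 2151R and 2208L the differences run from 5.44 at Abcb1b to -1.95 at Abcg2, and no interval of the PBS comparison has a filled point.

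Counted together, 5 of the 7 members were called higher in 2151R against 2208L, and 1 was called lower. Over all 17271 genes 48.8% were called in this comparison, 26.1% higher and 22.7% lower. The groups did not overlap at 6 of 7 members and at 38.8% of all genes. The median difference of the members was 1.47, beside 0.10 over all genes. These 6 calls held in each of the 23 alternatives, which include leaving out the 3 samples high in muscle genes. The CP numbers in the titles of all 4 samples of 2151R form one block apart from those of the other models, so the block and the model cannot be told apart.

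In 2225L against 2208L, 0 members were called higher and 4 lower, Abcb1b, Abcc1, Abcc4 and Abcg2, where 32.9% of all genes were called, 15.6% higher and 17.3% lower. By an unadjusted p under 0.05, 4 members differed. Groups did not overlap at these same 4 members, against 31.7% of all genes. Without 2225L replicate 1 the count was 2, Abcb1b and Abcc4. The titles of the 2225L samples carry numbered codes with the prefixes CP and ROSEN, as do those of 2208L. What these codes stand for is not stated in the titles. Within CP, 2225L replicate 1 differed from the mean of 7 samples of 2208L by -2.17 at Abcb1b, -0.69 at Abcc1, -1.35 at Abcc4 and -1.81 at Abcg2. Within ROSEN, where each model has 1 sample, the differences were -1.14, -0.40, -1.33 and -0.88. That these 4 genes were lower in 2225L in both prefixes follows from the groups not overlapping, so it says nothing further about the prefix. Abcc3, which was not called, was also lower in both, at -0.49 within CP and -0.052 within ROSEN. Abcb1a and Abcc5 differed in direction between prefixes, at -0.56 and -0.32 within CP and 1.07 and 1.35 within ROSEN.

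Between 2225L and 2151R, 6 of 7 members were called lower in 2225L and 0 higher, with 48.6% of all genes called, 25.8% lower and 22.8% higher. Groups did not overlap at 6 of 7 members, and at 62.4% of all genes. Abcb1a differed by -3.87 (SE 0.60), Abcc1 by -1.89 (SE 0.20), Abcc3 by -1.85 (SE 0.32) and Abcc5 by -2.15 (SE 0.50), with the largest limma adjusted p of these 4 at 0.00324. The 6 calls held in each of 17 alternatives. The 3 model comparisons share samples with one another, so their values are not independent.

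In the single T11 tumour, 5 members (Abcb1a, Abcb1b, Abcc1, Abcc3 and Abcc5) lay above every sample of 2208L, as did 35.8% of all genes. Abcc4 lay below every sample of 2208L, as did 21.7% of all genes, and Abcg2 lay within them. The value of T11 minus the 2208L mean was 4.24 for Abcb1b, 3.66 for Abcc5, 3.05 for Abcb1a, 1.51 for Abcc1, 1.02 for Abcc3, 0.19 for Abcg2 and -1.89 for Abcc4. Against 2151R, T11 was higher at Abcc5 and Abcg2, lower at Abcb1b, Abcc3 and Abcc4, and within the range at Abcb1a and Abcc1. Of all genes, 39.9% lay above and 30.8% below every 2151R sample. Against 2225L, 6 members were higher in T11 and Abcc4 was lower, with 45.5% of all genes above and 35.0% below every 2225L sample. With 1 sample these values carry no test.

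Within 2208L, 0 of 7 members were called different between the 4 PBS and 3 3day nt samples by limma, while 34.0% of all genes were. By an unadjusted p under 0.05, 2 members differed, Abcc1 and Abcc4. The PBS samples had a mean Abcc1 of -0.26 ± 0.13 (SD, n = 4), and the 3day nt samples one of -0.59 ± 0.075 (SD, n = 3), a difference of 0.33 (limma adjusted p 0.0635). Abcc4 was 1.68 ± 0.28 (SD, n = 4) and 1.17 ± 0.24 (SD, n = 3), a difference of 0.51 (limma adjusted p 0.0804). The samples of these subsets did not overlap at either gene, nor at 44.8% of all genes. Both were called by limma with each sample centred on its median (adjusted p 0.00934 and 0.0376), with quantile normalization (0.0377 and 0.0392) and with sample weights (0.00186 and 0.0109). Abcc1 was also called without 2208L replicate 5 (limma adjusted p 0.0265). With sample weights Abcb1a (0.76, adjusted p 0.0308) and Abcc3 (0.74, adjusted p 0.0181) were called by limma as well. As deposited, the samples of these subsets overlapped at the other 5 members, with differences from -0.39 at Abcc5 to 0.57 at Abcb1a. The subsets fall in separate ranges of the CP numbers in their titles, so subset and range cannot be told apart. Skeletal muscle genes had a mean centred value from 0.49 to 9.22 in the 3day nt samples and from -4.46 to 1.60 in the PBS samples. The median difference, PBS minus 3day nt, was also -4.81 for adipocyte, -3.52 for mast cell and -1.76 for T cell genes. It was 0.35 for erythroid genes, and from -0.41 to -0.14 for epithelial, endothelial, macrophage and fibroblast genes. The part of these cell types in the result was not tested.

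Abcb1a and Abcb1b are neighbours, with no other measured gene between them. Their next neighbour is Abcb4, which encodes the phospholipid pump of the bile canaliculus. The 10 measured genes on each side of the pair also tended to be higher in 2151R than in 2208L: 12 of 20 were called higher and 2 lower, where 26.1% of all genes were called higher. Their median difference was 1.18. For 15776 genes of the table with 10 measured genes on each side, the median over such neighbours was from -0.63 at the 5th percentile to 0.73 at the 95th percentile. The median of the 20 flanking genes, each centred over the 15 samples, was from 0.73 to 1.05 in 2151R, 0.32 in T11, -0.54 and -1.13 in 2225L and from -0.72 to -0.062 in 2208L. For the flanking genes the samples of 2151R thus lay above all others, as they did for Abcb1b, while at Abcb1a T11 was within their range.

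Farther out, the next 20 genes (11 to 20 steps away) had a median difference of 0.93 and those 21 to 30 steps away one of 0.59. Among the flanking genes, Rundc3b differed by 4.14 and Slc25a40, a mitochondrial carrier, by 1.21. Steap1 and Steap2 differed by 4.06 and 4.25, and Sema3a, an axon guidance ligand, by 6.09. Sema3d, its relative, was lower by a difference of -3.19. These flanking genes are named as examples chosen after their values were seen. Whether DNA copy number differs there was not tested.

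**Figure D3:**
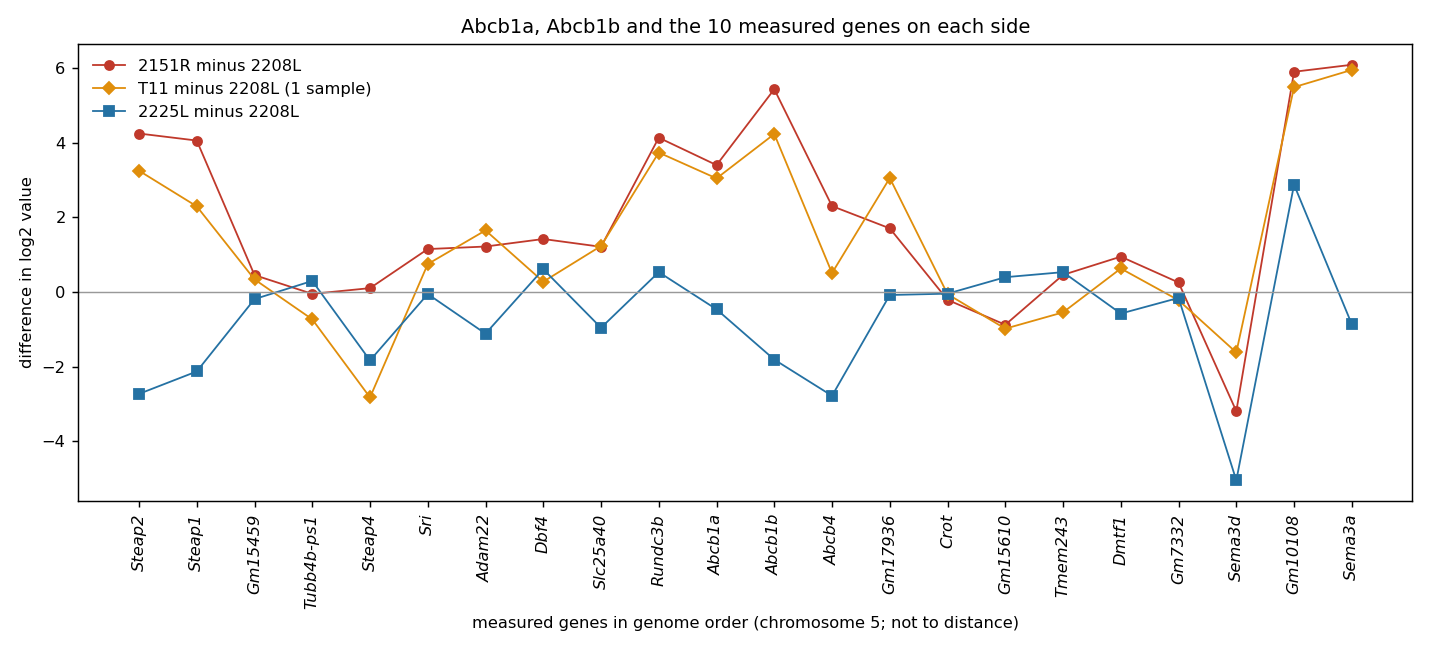
Difference in log2 value from 2208L (vertical axis) for 2151R, T11 (1 sample) and 2225L at Abcb1a, Abcb1b and the 10 measured genes on each side, in genome order and not to distance. The 2151R and T11 lines lie above 0 from Sri to Gm17936, with 3.40 and 5.44 at Abcb1a and Abcb1b for 2151R, and the 2225L line is at -0.46 and -1.81 there.

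Abcb4 varied in a way that the pair did not. It was 1.45, 1.06, 2.59 and 2.53 in 2151R and 0.11 in T11. In 2225L it was -3.97 and -2.38. In 2208L, replicates 6 and 8 were at 3.91 and 3.34 and the other 6 from -2.84 to -1.14. The high pair are the 2208L samples high in skeletal muscle genes, in which Abcb1b was 0.00 and -0.23, and Abcb1a -0.55 and -1.30. At Abcb4 the difference between 2151R and 2208L was 2.30 and not called (limma adjusted p 0.128). The coding sequence of Abcb4 shares an exact run of 110 bases with Abcb1a and one of 98 with Abcb1b. How reads from these runs were divided is not given either, so the Abcb4 values carry the same uncertainty.

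At the other members, the neighbouring genes moved less. The median difference of the 20 neighbours between 2151R and 2208L was -0.29 around Abcc3, 0.23 around Abcc4, 0.16 around Abcc1, -0.094 around Abcc5 and -0.44 around Abcg2. Around Abcg2, 8 of 20 neighbours were lower and 4 higher, where 22.7% of all genes were called lower. All 5 medians lay between the 5th and 95th percentile given above.

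The genes with profiles most like each member over the 15 samples were found by the smallest root mean square difference after centring. For Abcb1a these were Lrp1 (0.33), an endocytic receptor, and Vegfc (0.45), a lymphatic growth factor. For Abcb1b they were Ust (0.47), a sulfotransferase, and Rnf152 (0.59), a ubiquitin ligase. For Abcc1 they were Map1s (0.17) and Stx2 (0.18), and for Abcc3 Lrrfip1 (0.22) and Nfic (0.24). For Abcc5 they were Fzd8 (0.23), a Wnt receptor, and Dnm1 (0.33), a dynamin. Fzd8, like Abcc5, was highest in T11 and next in 2151R, with 2.01 in T11, a mean of 0.95 in 2151R, and means of -1.08 and -1.18 in 2225L and 2208L. For Abcc4 they were Trim34b (0.29) and Arap2 (0.29), and for Abcg2 Neto2 (0.33) and Slc35a2 (0.38), a UDP-galactose carrier.

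Of the other ABC genes, 32 of 45 listed were measured. Between 2151R and 2208L, 8 were called higher and 8 lower, or 50% of the list, near the 48.8% of all genes. The median difference was 0.14 beside 0.10 over all genes. Abcg3 was higher by 3.05 (SE 0.37) and Abcd4, a transporter of vitamin B12 from lysosomes, by 2.69 (SE 0.19). Cftr, a chloride channel of the Abcc subfamily, was lower by a difference of -4.78 (SE 0.81). The members Abcb1b and Abcb1a had the largest positive differences of the 39 ABC genes in the table, and Abcg2 was the lowest after Cftr. With samples titled NT, nt or PBS alone, 9 rather than 16 of the 32 were called.

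Between 2225L and 2208L, 6 of the 32 other ABC genes were called higher and 7 lower, or 40.6% of the list where 32.9% of all genes were called. Abca12, a lipid transporter of the epidermis, was higher by 5.84 (SE 0.55), and Abcb6, a porphyrin transporter, by 3.19 (SE 0.27). Cftr was lower by a difference of -10.19 (SE 1.04), and its 2225L samples stood at 0.00 and -6.64. At Abca12, 4 of the 15 samples share an exact value, so its difference and SE rest partly on a repeated value. Against 2151R, 9 were higher and 11 lower in 2225L, or 62.5% where 48.6% of all genes were called, with Abca12 at 6.60 (SE 0.60), Cftr at -5.40 (SE 1.14) and Abcb4 at -5.08 (SE 1.69). Without 2225L replicate 2 that count of 20 was 10.

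**Figure D4:**
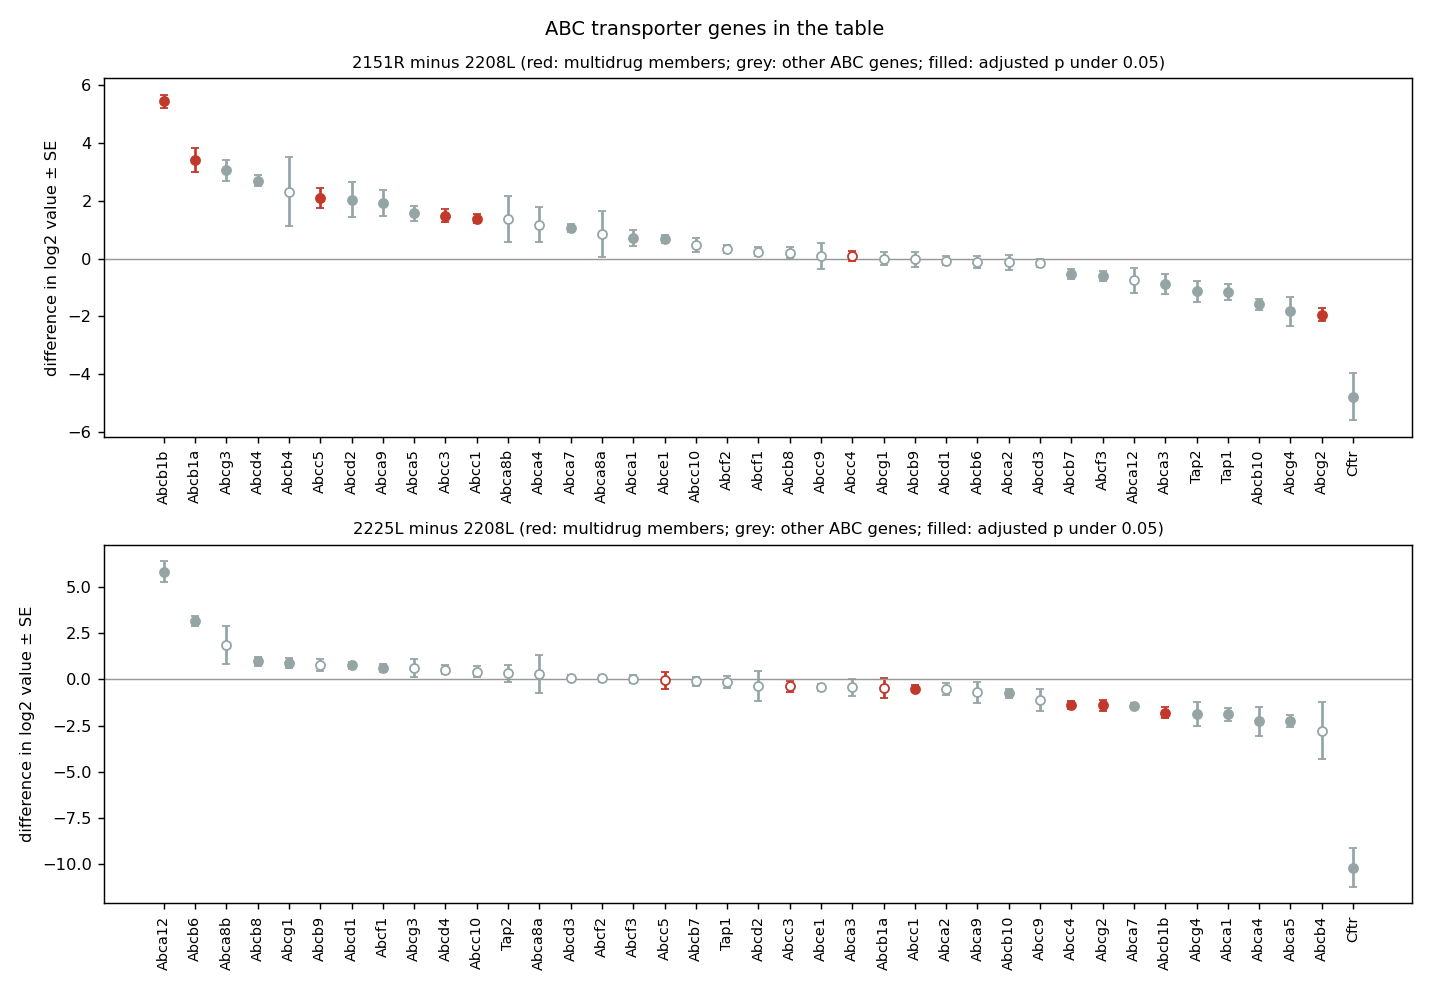
Difference in log2 value ± SE (vertical axis) for the 39 ABC genes of the table, ordered by size, between 2151R and 2208L (top) and between 2225L and 2208L (bottom), with the multidrug members in red and filled points at an adjusted p under 0.05. Abcb1b and Abcb1a head the upper panel at 5.44 and 3.40, and in the lower panel the members lie at or below 0, from -0.049 to -1.81.

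Of 16 listed transcription factors and partners that regulate these transporters, 13 were measured. In 2151R against 2208L 3 were called higher, with 4 called lower (median difference 0.023). That is 53.8% of them, near the 48.8% of all genes. Vdr, the vitamin D receptor, was lower by a difference of -3.65 (SE 0.29), and Ahr, the receptor for dioxin-like ligands, by -0.88 (SE 0.18). Hif1a, which directs responses to low oxygen, was higher by 0.94 (SE 0.21). The count of 7 was 3 with 2151R and 2208L limited to samples titled NT, nt or PBS. It was 4 with the genes of lowest spread left out of fit and list. In 2225L, 2 were higher and 4 lower than in 2208L (median difference -0.26), or 46.2% where 32.9% of all genes were called. Nr1i3, the constitutive androstane receptor, was higher by 2.85 (SE 0.27), while Vdr (-2.22, SE 0.38) and Ahr (-1.19, SE 0.23) were lower. Against 2151R, 3 were higher and 3 lower in 2225L, or 46.2% beside 48.6% of all genes, with Nr1i3 at 2.48 (SE 0.29), Hif1a at -1.43 (SE 0.30) and Vdr at 1.42 (SE 0.41).

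Glutathione synthesis and conjugation supplies the substrates of several Abcc pumps. Of 28 listed genes 25 were measured. In 2225L, 13 were called higher and 2 lower than in 2208L, with a median difference of 1.02 beside -0.044 over all genes, where 15.6% were called higher. Gstp2 was higher by 5.18 (SE 1.52) and Gstm6 by 3.84 (SE 0.75), and Mgst2 was lower by a difference of -3.07 (SE 0.28). Gstp and Gstm genes have near-identical copies, so reads may be split among them. The count of 15 was 7 without 2225L replicate 2 and 4 with sample weights. Against 2151R, 11 were higher and 5 lower in 2225L (median 1.36), or 64% where 48.6% of all genes were called, with Gsta4 at 5.24 (SE 0.45), Mgst1 at 5.18 (SE 0.53) and Gstm6 at 4.80 (SE 0.82). Between 2151R and 2208L, 6 were higher and 6 lower (median 0.11), or 48% beside 48.8% of all genes, with Mgst1 at -4.26 (SE 0.38), Gstt3 at -2.62 (SE 0.20) and Gsta4 at -2.55 (SE 0.32).

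Drug uptake transporters, which carry organic ions, nucleosides and peptides into cells, were measured for 14 of 23 listed genes. Between 2151R and 2208L, 3 were called higher and 5 lower, or 57.1% where 48.8% of all genes were called. Slc15a2, a peptide transporter, was lower by a difference of -7.43 (SE 0.25), while Slco5a1 (3.99, SE 0.75) and Slco2b1 (2.48, SE 0.38) were higher. In 2225L, 1 was higher and 3 lower than in 2208L, or 28.6%, below the 32.9% of all genes. The higher gene was Slc15a1 (6.88, SE 0.50), at which 10 of the 15 samples share an exact value. The lower genes included Slco2a1, a prostaglandin carrier (-2.46, SE 0.31), and Slco3a1 (-1.98, SE 0.36). Against 2151R, 5 were higher and 5 lower in 2225L, or 71.4% where 48.6% of all genes were called, with Slc15a2 at 7.42 (SE 0.35), Slc15a1 at 7.18 (SE 0.54) and Slco5a1 at -4.55 (SE 1.06). Without 2225L replicate 2 that count of 10 was 6.

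Within 2208L, between PBS and 3day nt samples, 4 of 32 other ABC genes were called higher and 3 lower, or 21.9% where 34.0% of all genes were called. They included Abcc9 (1.58, SE 0.39), Abca3 (1.20, SE 0.18) and Tap2 (-1.26, SE 0.13). Among regulators 7 of 13 were higher and 0 lower, where 17.4% of all genes were called higher and 16.5% lower. Foxo3 differed by 0.997 (SE 0.16), Foxo1 by 0.90 (SE 0.15) and Vdr by 0.83 (SE 0.17). Of the glutathione genes 0 were higher and 5 lower, or 20%, with Gstp2 at -4.42 (SE 0.50), Gstt2 at -1.21 (SE 0.35) and Gstt1 at -0.96 (SE 0.30). Of 14 uptake transporters 0 were called by limma, and 2 had an unadjusted p under 0.05. With the samples high in muscle genes left out, which leaves 1 sample titled 3day nt that is assumed to vary like the PBS samples, the counts of 7 other ABC genes, 7 regulators and 5 glutathione genes each became 0. Leaving out 2208L replicate 8 alone gave 3, 2 and 1.

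Markers of other cell types also differed in these comparisons, in which 26.1% of all genes were called higher and 22.7% lower between 2151R and 2208L. The shares were 15.6% and 17.3% between 2225L and 2208L, and 22.8% and 25.8% between 2225L and 2151R. Of 9 macrophage genes, 6 were called higher and 0 lower in 2151R compared with 2208L. In 2225L, 0 were higher and 6 lower compared with 2208L. Against 2151R, 9 of 9 were lower in 2225L. Their mean centred value was from 0.73 to 1.03 in 2151R, 1.18 in T11, -1.95 and -0.80 in 2225L and from -0.65 to 0.17 in 2208L, and the 4 models did not overlap. Of 10 endothelial genes, 6 rose and 0 fell from 2208L to 2151R. Their mean was from 0.26 to 0.88 in 2151R, 0.59 in T11, -0.52 and 0.31 in 2225L, and in 2208L -0.43 at the median and 0.54 at the highest, and these ranges overlapped. P-glycoprotein and Abcg2 are known from the endothelium of many organs, as background. The same comparison called 3 of 6 fibroblast genes higher, and of 5 mast cell genes 4 higher and 1 lower. Of 9 epithelial genes 7 were lower in 2151R and 2 higher.

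Of 7 T cell genes 1 was higher in 2151R than in 2208L, and of 7 adipocyte genes 2 were. Of 9 skeletal muscle and 6 measured erythroid genes, 0 were called between these models by limma, and 0 had an unadjusted p under 0.05. Because each gene has its own reference level, the values do not show which markers were at or near no expression. The part of these cell types in the transporter differences was not tested. In such bulk samples, fewer cells of a type and less RNA per cell cannot be told apart.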

How the data were processed

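The data are bulk RNA-seq of 15 tumours. Per the labels' protocols, total RNA was column-purified, and its polyadenylated part was captured on oligo-dT beads for TruSeq library preparation. The submitters' processing notes name STAR, Salmon and the mm10 build, without role or version. Annotation and normalization between samples are not given in the sources used here. The authors deposited log2 values, by the name of their table, relative to a level of each gene. That level and the offset before the logarithm are not stated. Of 17271 genes, 7502 had a value of exactly 0 in 1 sample and 1124 had a median of 0 over these samples.

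The model named in each title set the group, and replicate numbers follow accession order. limma 3.58.1 in R 4.3.3 (lmFit, eBayes without trend) was fitted to all 17271 genes as deposited. The model comparisons used all 15 samples with a shared spread, and the PBS comparison its 7 samples. A gene is called where its p, adjusted over all genes by Benjamini-Hochberg, is under 0.05. The fit was tested on simulated data with known differences. Gene order came from RefSeq on GRCm38.p6, the assembly behind mm10, which placed 16179 genes (93.7%) by symbol. Coding sequences came from the GENCODE annotation of GRCm38. The named genes are all members, the 3 called genes of each list with the largest differences in a comparison, and the 2 genes most like each member without predicted symbols. The members and lists were chosen with earlier results of these data known. Alternatives in scaling, variance prior, sample weights, filtering, call rule, samples and title prefix (CP or ROSEN) were tried. Leaving out the samples high in muscle genes was added after the data were seen.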

Additional observations from a re-analysis of the deposited data

Results flagged for a closer look

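In 2208L, the Abcg2 value of replicate 5, a PBS sample, was -0.24. Its 7 fellow samples spanned 0.45 to 0.99. It was flagged because its gap to the nearest sample was wide for the range of the group. Of 21 groups of 4 or 8 samples tested in this way, 1 had such a sample, and chance alone gives about 1 in 20, or 1.05. Its part in the comparisons was measured by leaving it out: the difference between 2151R and 2208L was then -2.06 and remained called.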

How the results depend on the processing

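Of the members, 6 were called in 2151R against 2208L and 6 in 2225L against 2151R under all 23 and 17 alternatives run, single replicates left out included. In 2225L against 2208L the count of 4 ran from 2 to 4 with single replicates left out. Between PBS and 3day nt samples the count of 0 ran from 0 to 1 in that way, and was 2 with median centring, 2 with quantile normalization and 4 with sample weights. The share of all genes called under each alternative is not given here. Whether a count of members or of a list moved more than that share therefore cannot be told. Among the lists in 2151R against 2208L, regulators had 4 calls with the genes of lowest SD left out of fit and list. A minimum difference of 1 log2 unit gave 1. With 2151R and 2208L limited to samples titled NT, nt or PBS, and 2225L and T11 whole, regulators had 3 calls. Other ABC genes then had 9. In 2225L against 2208L, other ABC genes had 6 calls and glutathione genes 4 with sample weights, and other ABC genes 8 with the minimum difference. In 2225L against 2151R, other ABC genes had 12 calls with sample weights, 12 with the title prefix as a covariate, and regulators 3 with weights. With single replicates left out, glutathione genes had 7 to 16 calls in 2225L against 2208L, and in 2225L against 2151R other ABC genes had 10 to 19 and uptake genes 6 to 10. Between PBS and 3day nt samples, sample weights gave 19 calls for other ABC genes, 12 for regulators, 19 for glutathione genes and 5 for uptake genes. The minimum difference gave 3, 0 and 2 for the first 3 of these lists, and leaving out the samples high in muscle genes gave 0, 0 and 0. Glutathione genes had 8 calls with quantile normalization, and uptake genes 2 with it and 1 with median centring. Single replicates left out gave 3 to 10 for other ABC genes, 2 to 8 for regulators, 1 to 10 for glutathione genes and 0 to 1 for uptake genes there. No called difference changed sign. Differences that were not called did so at Abcc4 in 2151R against 2208L (-0.036 with quantile normalization, -0.038 with sample weights). In 2225L against 2208L they did so at Abcb1a (0.032 with the prefix covariate) and Abcc5 (up to 0.51, with quantile normalization). Between PBS and 3day nt samples they did so at Abcg2 (down to -0.13, without 2208L replicate 2). Without the samples high in muscle genes, Abcb1b (0.25) and Abcc5 (0.45) changed sign there too. Abcc5 also reached 0.013 there with a single replicate left out. The cause of these moves was not tested, except that a minimum difference makes the call rule stricter and fewer samples or genes make the fit smaller. No paired analysis was possible because no label numbers the replicates across groups. Depth is unknown, so no limit from it can be given. Where 1 sample is left in a group, as in 2225L with a replicate left out, that sample is assumed to vary like the other groups.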
